A study of Mus musculus with 69 samples.

Results

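The acyl-CoA thioesterases are described here by the 7 genes Acot1, Acot2, Acot7, Acot8, Acot9, Acot11 and Acot13, taken from the count tables of cultured murine vascular cells by matching each Ensembl identifier to its symbol. They are 7 of the 56953 genes listed in the tables, and each had at least 1 count in every library. The rule uses no measured value, but the members were proposed with earlier results of these data known.

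Acyl-CoA thioesterases split an acyl-CoA into the free fatty acid and coenzyme A, the reverse of the step by which acyl-CoA synthetases activate a fatty acid. Their members sit in different compartments: Acot1 is cytosolic, Acot2 lies in the mitochondrial matrix, Acot9 is also mitochondrial, Acot8 is peroxisomal, Acot7 is largely cytosolic, Acot11 carries a lipid-binding START domain, and Acot13 is a small enzyme found at mitochondria. In liver, heart and muscle Acot1 and Acot2 are well-known targets of the nuclear receptor PPARalpha, for which fatty acids are ligands.

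The cells were primary cultures from male C57BL/6 mice, exposed for 24 h. WT VSMC were smooth muscle cells of the aorta (sets 1 to 4). KO VSMC came from mice in which a Cre driven by the SM22 promoter had deleted floxed Egfr, the epidermal growth factor receptor (sets 5 to 8). EC were heart cells labelled WT that had been selected with beads as CD45-/CD31+ (sets 9 to 18). A set holds the libraries made from the cells of one preparation, and sets 17 and 18 came from the same animal. The labels give EC sets 9 and 10 the animals of WT VSMC sets 1 and 2, and EC sets 15 and 16 the animals of KO VSMC sets 7 and 6. Control cells received fatty acid-free albumin alone, which all other groups received as well. HG + FFA is 20 mM glucose with free fatty acids, given as 100 µM in the labels and as oleate and palmitate in the study's methods. AII + NA is 30 nM angiotensin II with 300 nM of a catecholamine that the labels call epinephrine and the study's methods norepinephrine. ALL combines both pairs. There were 4 libraries in each group of WT VSMC and KO VSMC, except 3 for KO VSMC with ALL. EC had 9 Control, 10 HG + FFA, 9 AII + NA and 10 ALL libraries.

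Libraries held 23626664 to 37801299 counts in WT VSMC, 23238979 to 35120866 in KO VSMC and 17166133 to 43240489 in EC. Levels are given as FPM, the CPM value (counts scaled to the library total) after TMM scaling over all 69 libraries. All VSMC libraries carry one batch label and all EC libraries another, so cell type and batch cannot be told apart. Egfr, the deleted gene, was at 226 to 500 FPM in WT VSMC, at 0.534 to 1.99 FPM in KO VSMC sets 6, 7 and 8, and at 33.7 to 40.2 FPM in KO VSMC set 5. It was at 7.47 to 12.2 FPM in EC set 15 and at 2.16 to 3.11 FPM in EC set 16, the sets whose animals the labels also give for KO VSMC. EC set 18, whose animal is not among those of KO VSMC, had 10.2 to 17.7 FPM, which overlaps set 15. Egfr was at 27.7 to 46.9 FPM in EC sets 10, 12, 14 and 17, and at 126 to 168 FPM in EC sets 9, 11 and 13. The summed level of 7 endothelial markers was 44.5 to 129 FPM in EC sets 9, 11 and 13 and 486 to 4580 FPM in the other 7 EC sets, against 0.648 to 61.5 FPM in WT VSMC. EC sets 9, 11 and 13 therefore go against their label by these markers, and the EC results of the members that were called are given with and without them, a choice made after seeing the data. Of the 5 fibroblast markers none was under 1 FPM on average in any group, and their sum reached 11300 FPM in WT VSMC Control and 11100 FPM in EC Control. The smooth muscle marker Tagln was at only 3.87 FPM on average in WT VSMC, while Acta2 was at 879 FPM. In EC, Tagln was at 6.22 FPM and Acta2 at 1000 FPM on average. The sum of the 6 smooth muscle markers was 225 to 3880 FPM in EC Control, highest in sets 11 and 13, and 352 to 1190 FPM in WT VSMC Control, so these markers do not separate EC from VSMC. The cardiomyocyte markers Myh6, Actc1, Nppa, Myl2 and Ryr2 were under 1 FPM on average in each cell type, as were the 4 adipocyte markers, while Tnnt2, the last of the cardiomyocyte list, averaged 33.4 FPM in WT VSMC, 70.6 FPM in KO VSMC and 103 FPM in EC. In such bulk samples, fewer cells of a type and less RNA per cell cannot be told apart.

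Acot1 and Acot2 are neighbours on mouse chromosome 12, on the plus strand, at 84056256 to 84065145 and 84034428 to 84040647 (GRCm39, the mm39 build used for the counts). Their canonical transcripts of 2280 and 2403 bases, each with 3 exons, share 4 runs of at least 50 identical bases, 723 bases in all, which lie within coding sequence in both genes. The longest is 273 bases of exon 3, and it is printed because reads that fall wholly inside it cannot be assigned to one of the genes. The sequence below is the plus strand of Acot1 at chr12:84063767-84064065, and capitals mark the 273 bases that are identical in Acot2 at chr12:84039502-84039774.
Acot1 exon 3: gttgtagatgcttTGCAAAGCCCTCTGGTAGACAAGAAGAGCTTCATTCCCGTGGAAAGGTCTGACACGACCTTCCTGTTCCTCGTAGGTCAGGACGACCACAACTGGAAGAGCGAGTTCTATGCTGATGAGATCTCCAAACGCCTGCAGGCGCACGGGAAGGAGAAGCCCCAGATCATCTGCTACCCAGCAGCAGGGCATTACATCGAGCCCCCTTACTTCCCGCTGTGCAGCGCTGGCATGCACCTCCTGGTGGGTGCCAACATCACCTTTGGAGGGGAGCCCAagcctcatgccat

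Of all 150-base windows of the Acot1 transcript, 9.8% occur unchanged in Acot2, and 9.3% of those of Acot2 occur in Acot1. Reads with several alignments were counted by the authors, so reads of one gene may have been counted for the other. The size of this error also depends on the level of the other gene and is not given by these shares. In WT VSMC Control the means were 7.25 FPM for Acot1 and 20.2 FPM for Acot2. With all other genes included, 12.3% of the 150-base windows of Acot1 occur elsewhere. The sum of Acot1 and Acot2 is given where it changes a call. Acot7 lies on chromosome 4 at 152262136 to 152356313 (plus strand), Acot8 on chromosome 2 at 164631348 to 164647353 (minus strand), Acot9 on chromosome X at 154045429 to 154175865 (plus strand), Acot11 on chromosome 4 at 106601752 to 106662195 (minus strand) and Acot13 on chromosome 13 at 24998351 to 25015547 (minus strand). Acot7 shared no 50-base window with another gene. Acot9 shared 20.1% of its 50-base windows with the retrogene Acot10 and with Gm49685, but none of its 150-base windows. On the opposite strand, exons of Tdp2 and BC005537 cover 74.5% of the exonic bases of Acot13, exons of Snx21 and Zswim3 cover 49.4% of those of Acot8, and exons of Fam151a and Gm68649 cover 11.7% of those of Acot11. The study's methods name the options -M and -t exon for the counting, and no option for strand or for overlapping genes. How reads in the shared stretches were assigned or dropped was not settled here. The counts of Acot13, Acot8 and Acot11 may therefore hold antisense reads or rest on part of their exons.

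The promoters of Acot1 and Acot2 are printed because both genes had higher counts with HG + FFA in EC. The windows are RefSeq's, 250 bases before to 50 after the start, plus strand, build GRCm38.p6, at chr12:84009252-84009551 for Acot1 and chr12:83987611-83987910 for Acot2. Capitals mark matches on either strand to 4 motifs. The half-site bound by nuclear receptors such as the PPARs was searched as AGGTCA, the promoter element known as the CCAAT box by that name, the GC box bound by Sp1 as GGGCGG, and the TATA box as TATAAA.
Acot1 promoter: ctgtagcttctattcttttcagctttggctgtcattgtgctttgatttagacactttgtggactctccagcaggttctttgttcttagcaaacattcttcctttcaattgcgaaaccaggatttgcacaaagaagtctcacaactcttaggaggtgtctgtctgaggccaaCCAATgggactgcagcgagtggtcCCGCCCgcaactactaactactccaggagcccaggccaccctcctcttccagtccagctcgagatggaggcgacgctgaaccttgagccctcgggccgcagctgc
Acot2 promoter: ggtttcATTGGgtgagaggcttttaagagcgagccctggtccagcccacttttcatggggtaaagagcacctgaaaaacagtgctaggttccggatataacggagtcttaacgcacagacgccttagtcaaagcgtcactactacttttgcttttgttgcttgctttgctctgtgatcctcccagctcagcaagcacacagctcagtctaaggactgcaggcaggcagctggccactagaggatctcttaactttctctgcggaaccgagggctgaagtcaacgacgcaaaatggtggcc

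The Acot1 window holds a CCAAT box, beginning 79 bases before the start, and a GC box on the minus strand, beginning 55 bases before it. The Acot2 window holds a CCAAT box on the minus strand only, beginning 244 bases before the start, and no matches overlapped. The nuclear receptor half-site was in neither window, nor in the windows of Acot7, Acot8, Acot9 and Acot11. Among all 32851 promoter windows of the same length, 16.3% hold the half-site, 37.4% a CCAAT box, 35.7% a GC box and 13.6% a TATA box on either strand. The absence of these letters from a window of 300 bases says nothing on binding elsewhere. Acot13 had no window in the RefSeq table.

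In Control cells Acot7 had the highest mean level of the members per kb of merged exons. Per kb of merged exons, its Control level was 32.3 ± 5.99 FPM in WT VSMC (SD, n = 4), 48.3 ± 11.3 FPM in KO VSMC (SD, n = 4) and 48 ± 12.3 FPM in EC (SD, n = 9). Acot13 followed with 22.5 ± 3.32 FPM per kb in WT VSMC, where the ranges of these 2 members overlapped (18.6 to 25.9 against 25.3 to 37.8 FPM per kb). In WT VSMC, Acot2 (8.42 ± 1.99 FPM per kb) and Acot9 (5.31 ± 0.937 FPM per kb) came next, with overlapping ranges. Acot1, Acot11 and Acot8 were lowest, at 1.85, 1.52 and 1.29 FPM per kb, and were not separated by their spread. The order depends on the length used. The levels of Acot13 and Acot8 also depend on how reads in the stretches shared with antisense exons were counted. Per kb of the canonical transcript, Acot13 (51.4 FPM per kb) and Acot7 (51.5 FPM per kb) were within their spread in WT VSMC, Acot9 (30.1 FPM per kb) was above Acot2 (8.42 FPM per kb), and Acot1 and Acot11 were lowest at 3.18 and 3.28 FPM per kb. In KO VSMC the level of Acot1 per kb of merged exons (5.9 ± 2.41 FPM) lay beside those of Acot2 (6.71 ± 2.27 FPM) and Acot9 (5.87 ± 0.977 FPM), with overlapping ranges. In EC Acot13 had 10.9 ± 3.54, Acot2 5.66 ± 2.1, Acot9 4.57 ± 1.12, Acot11 2.43 ± 0.831, Acot1 2.34 ± 1.18 and Acot8 1.35 ± 0.24 FPM per kb of merged exons, and each overlapped its neighbour in this order.

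**Figure D1:**
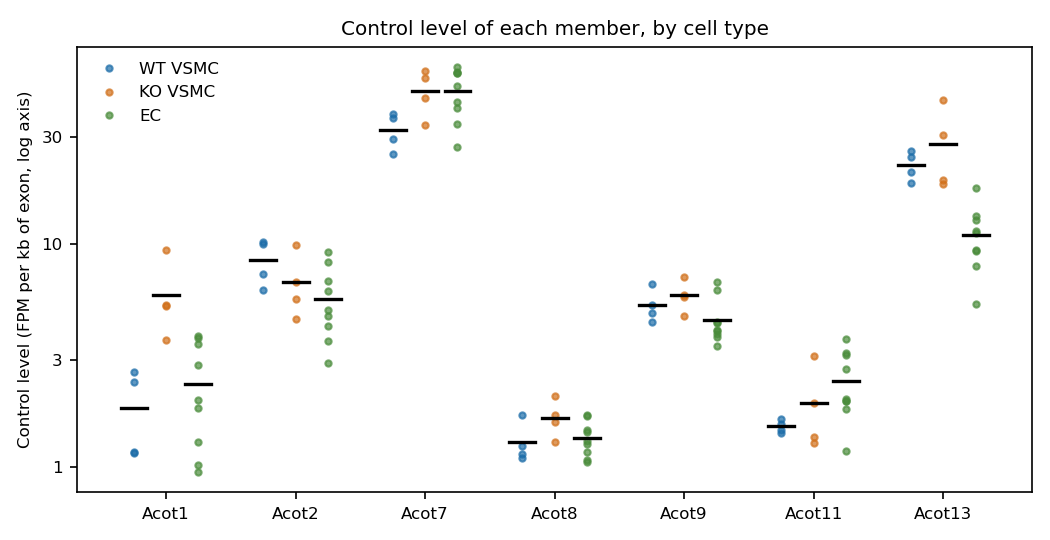
Control level of each member in WT VSMC (4 libraries), KO VSMC (4) and EC (9), in FPM per kb of merged exons on a log axis, with points for libraries and black bars for means. The mean of Acot7 is the highest in each cell type, the Acot1 points of KO VSMC lie above all those of WT VSMC, and the Acot13 points of EC lie below all those of both VSMC groups.

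Without stressors, Acot13 was the only member called between EC and WT VSMC, and cell type, organ and batch cannot be told apart here. Its Control level was 31.3 to 43.6 FPM in the 4 WT VSMC libraries and 9.01 to 29.9 FPM in the 9 EC libraries, with a median of 18.8 FPM, so the groups did not overlap. How many of all genes were without overlap here was not counted. The difference of Acot13 was -1.03 ± 0.23 on the log2 scale (SE, EC minus WT VSMC, edgeR quasi-likelihood test, adjusted p = 0.015), a fold of 0.489. Of all 17115 genes tested here, 12% were called, so 1 of 7 members is near that share. By the study's rule for differentially expressed genes (adjusted p under 0.05 in edgeR and DESeq2, an absolute log2 difference of at least 0.64 and at least 3 FPM in one group), Acot13 was also called, beside 9.33% of all genes. Of the genes that overlap it, BC005537 (0.18 ± 0.19, adjusted p = 0.55) and Tdp2 (0.20 ± 0.28, adjusted p = 0.65) did not pass the test. The Control median of BC005537 was 201 FPM in EC and 179 FPM in WT VSMC, above that of Acot13. For Tdp2 it was 17.6 and 15.2 FPM. The part of these genes in the counts of Acot13 was not tested. Leaving out WT VSMC set 1 or 3 raised the adjusted p of Acot13 to 0.054 and 0.056, and without EC sets 9, 11 and 13 the difference was -1.18 ± 0.22 (adjusted p = 0.0035). Acot11 was higher in EC by 0.69 ± 0.26 (adjusted p = 0.095) and passed the test without EC sets 9, 11 and 13 (0.92 ± 0.20, adjusted p = 0.0064). Acot7 was higher by 0.58 ± 0.22 (adjusted p = 0.093), and the other 4 members had adjusted p-values of 0.2 to 0.82.

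The Control level of Acot1 was higher in KO VSMC than in WT VSMC, without passing the edgeR test over all genes. It was 4.53, 9.43, 4.57 and 10.4 FPM in WT VSMC sets 1 to 4, and 20.6, 14.6, 36.7 and 20.8 FPM in KO VSMC sets 5 to 8. The 2 groups did not overlap, and the lowest KO VSMC library was above the highest WT VSMC library. The share of all genes that separate the genotypes in this way was not counted, so the separation alone says little of Acot1. The difference of Acot1 was 1.67 ± 0.38 on the log2 scale (SE, 95% interval 0.83 to 2.52), a fold of 3.19, but it did not pass the test over all genes by edgeR (adjusted p = 0.24). DESeq2 with the same model gave an adjusted p of 0.0035. By edgeR, 0.00622% of genes were called, 1 of 16089, and no member was among them, while 1958 genes and 2 members (Acot1 and Acot7) had an unadjusted p under 0.05 and DESeq2 called 334 genes. Without set 5, which kept some Egfr, the difference was 1.72 ± 0.41 (adjusted p = 0.063), and leaving out any 1 of the 8 sets gave 1.37 to 1.9. Acot2 was lower in KO VSMC by -0.33 ± 0.27 (adjusted p = 0.59), and the sum of Acot1 and Acot2 differed by 0.51 ± 0.23 (adjusted p = 0.41). The genotypes came from different animals, so this comparison has no pairing. Marker sums differed between the genotypes by their group medians, but their ranges overlapped. The summed fibroblast markers had a median of 6410 FPM in WT VSMC Control (4790 to 11300 FPM) and of 2120 FPM in KO VSMC Control (1370 to 6440 FPM). Set 5 alone of KO VSMC lay within the fibroblast range of WT VSMC, at 5630 to 6440 FPM over its libraries. The summed smooth muscle markers in Control had medians of 713 FPM in WT VSMC (352 to 1190 FPM) and 1550 FPM in KO VSMC (1000 to 3040 FPM). Over all conditions Cnn1 averaged 22.9 FPM in WT VSMC and 99.5 FPM in KO VSMC, and Myh11 7.4 and 52.3 FPM. Their part in the difference of Acot1 was not tested.

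Acot1 rose most clearly of the members in EC with HG + FFA. Its Control level in EC was 3.72 to 15.2 FPM with a median of 7.8 FPM, and its level with HG + FFA was 3.33 to 51 FPM with a median of 18 FPM, so the groups overlapped. Within sets the change was more regular, from 5.1 to 18.4 FPM in set 12, from 7.8 to 23.1 FPM in set 16, from 7.21 to 18.9 FPM in set 17 and from 13.9 to 51 FPM in set 18. In set 14 Acot1 went from 14.8 to 25.2 FPM, in set 9 from 11.2 to 17.6 FPM and in set 15 from 3.72 to 5.56 FPM. It was about level in set 13 (15.2 and 15.8 FPM) and lower in set 11 (3.99 and 3.33 FPM), both of them sets with low endothelial markers. Set 9, where Acot1 was higher, is also a set with low endothelial markers. Thus, Acot1 was higher in 8 of 9 sets that have both libraries.

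The paired edgeR fit gave a log2 difference of 0.97 ± 0.18 for Acot1 in EC with HG + FFA (SE, adjusted p = 0.0012), a fold of 1.96. It called 3.53% of all genes and 2 members, Acot1 and Acot13, both higher. By the study's rule 0.647% of genes were called, and of the members Acot1 alone. Without EC sets 9, 11 and 13 the difference of Acot1 was 1.31 ± 0.18 (adjusted p = 0.00013). Sets 17 and 18 share an animal, and sets 10 and 15 each lack 1 library. Leaving out sets 10, 15 and 18 gave 0.90 ± 0.21 (adjusted p = 0.027), and leaving out sets 15 and 16, also chosen after seeing the data, 0.93 ± 0.21 (adjusted p = 0.019).

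**Figure D2:**
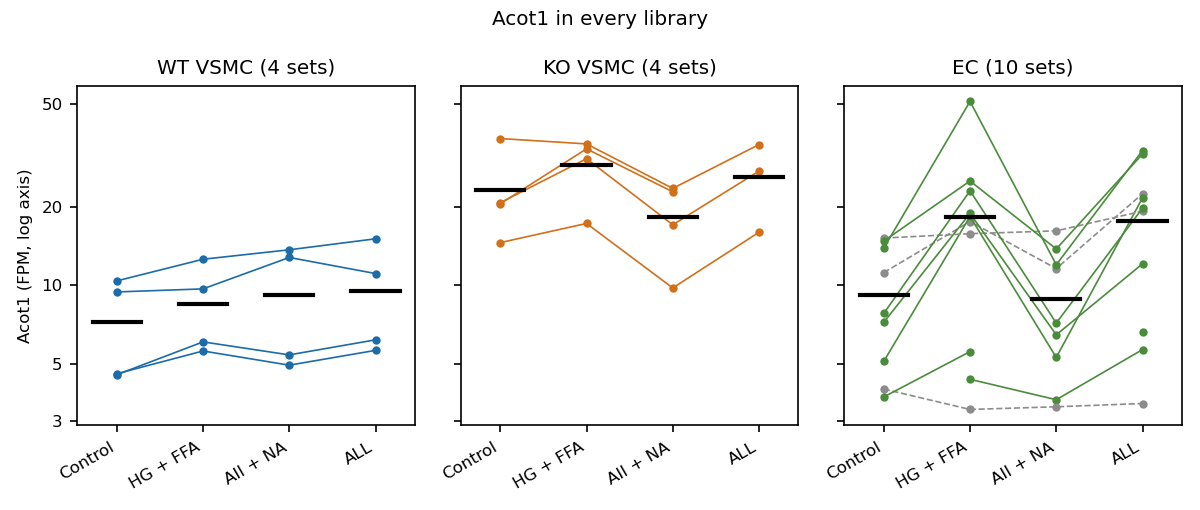
Acot1 in every library, in FPM on a log axis, by condition and cell type. Each line joins the libraries of one set, dashed grey lines are EC sets 9, 11 and 13, and black bars are group means. In EC the mean is 9.2 FPM in Control, 18.3 FPM with HG + FFA, 8.84 FPM with AII + NA and 17.6 FPM with ALL.

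With ALL, Acot1 in EC was 3.51 to 33 FPM with a median of 19.6 FPM, higher than Control in 8 of 9 sets. The difference from Control was 0.97 ± 0.18 (adjusted p = 0.0013), and 1.23 ± 0.18 without EC sets 9, 11 and 13 (adjusted p = 0.00025). Acot1 and Acot13 were called, both higher, beside 3.18% of all genes, and by the study's rule Acot1, beside 0.641%. With AII + NA alone Acot1 in EC was 3.41 to 16.2 FPM with a median of 7.16 FPM. That group overlapped Control, and the difference was -0.04 ± 0.19 (95% interval -0.42 to 0.34, adjusted p = 0.97). The metabolic main effect, which averages HG + FFA against Control and ALL against AII + NA, was 0.99 ± 0.13 for Acot1 in EC (adjusted p = 2e-06). Acot1 was higher in 17 of the 18 within-set pairs that it averages, and in 9 of 9 pairs of ALL with AII + NA. Without EC sets 9, 11 and 13 the main effect was 1.30 ± 0.13 (adjusted p = 2.5e-07), and without EC sets 15 and 16 it was 0.94 ± 0.15 (adjusted p = 0.00015).

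In KO VSMC Acot1 had the highest mean Control level of the 3 cell types, 23.2 FPM against 7.25 FPM in WT VSMC and 9.2 FPM in EC. In sets 5 to 8 it was 20.6, 14.6, 36.7 and 20.8 FPM in Control and 33.5, 17.3, 35 and 30.7 FPM with HG + FFA. With AII + NA it was 22.9, 9.77, 23.6 and 17.1 FPM, and with ALL, in sets 6 to 8, 16, 34.8 and 27.5 FPM. All of these groups overlapped, and the values were lowest with AII + NA in sets 6, 7 and 8. The metabolic main effect in KO VSMC was 0.46 ± 0.09 (adjusted p = 0.016), a fold of 1.38, with 6 of 7 pairs higher. Acot1 was the only member called in KO VSMC for this effect, beside 2.18% of all genes. It did not reach the study's fold limit, so that rule called no member there, beside 0.713% of genes. Leaving out KO VSMC set 6, 7 or 8 raised its adjusted p to 0.072 to 0.15. HG + FFA against Control was 0.35 ± 0.12 in KO VSMC (adjusted p = 0.31), AII + NA -0.34 ± 0.13 (adjusted p = 0.51) and ALL 0.23 ± 0.14 (adjusted p = 0.56). In KO VSMC HG + FFA alone called 0.439% of genes and no member, and ALL called 0.399% and no member.

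In WT VSMC Acot1 shifted by small amounts. In sets 1 to 4 it was 4.53, 9.43, 4.57 and 10.4 FPM in Control, 6.06, 9.69, 5.59 and 12.6 FPM with HG + FFA, 5.4, 12.8, 4.93 and 13.7 FPM with AII + NA, and 6.17, 11.1, 5.62 and 15.1 FPM with ALL. The 4 groups overlapped, since sets 2 and 4 were above sets 1 and 3 throughout. Within sets, however, each of the 3 stressor groups was above Control in 4 of 4 sets. ALL against Control was 0.38 ± 0.11 (adjusted p = 0.041), a fold of 1.3, and Acot1 was the only member called there, beside 7.45% of all genes. The call did not stand without any 1 of the 4 sets (adjusted p = 0.061 to 0.28), and by the study's rule, which called 2.14% of genes, no member passed. With the counts of Acot1 and Acot2 added up, the difference for ALL was 0.20 ± 0.07 (adjusted p = 0.12). HG + FFA against Control was 0.25 ± 0.11 (adjusted p = 0.38, 0.538% of genes called), AII + NA 0.32 ± 0.11 (adjusted p = 0.3, 0.0532% of genes called) and the metabolic main effect 0.16 ± 0.07 (adjusted p = 0.24, 6.77% of genes called). No member was called in these 3 comparisons.

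Acot2, the mitochondrial relative of Acot1, followed it at lower amplitude in EC. Its Control level in EC was 7.05 to 22.1 FPM with a median of 12.1 FPM, and with HG + FFA it was 8.87 to 37.4 FPM with a median of 17.6 FPM. With AII + NA it was 7.05 to 23.9 FPM (median 12.1 FPM) and with ALL 10.1 to 28.1 FPM (median 20.2 FPM). The groups overlapped. Acot2 was higher with HG + FFA in 7 of 9 sets, most in set 12 (10.3 to 37.4 FPM), and lower in set 17 (22.1 to 15.5 FPM) and slightly in set 11 (12.1 to 12 FPM). ALL was above AII + NA in 9 of 9 sets.

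The metabolic main effect of Acot2 in EC was 0.58 ± 0.12 (adjusted p = 0.00088), a fold of 1.5. Each contrast with Control missed the threshold by edgeR, with 0.52 ± 0.16 for HG + FFA (adjusted p = 0.07) and 0.54 ± 0.16 for ALL (adjusted p = 0.065), and passed by DESeq2 (adjusted p = 0.032 and 0.027). Without set 12 the difference for HG + FFA was 0.34 (adjusted p = 0.3). Without EC sets 9, 11 and 13 the main effect was 0.71 ± 0.16 (adjusted p = 0.0054), with 0.64 ± 0.22 for HG + FFA (adjusted p = 0.14) and 0.60 ± 0.22 for ALL (adjusted p = 0.2). In KO VSMC Acot2 was 23.7, 13.6, 16.1 and 11.1 FPM in Control in sets 5 to 8, and 19.6, 14.7, 24.9 and 20.5 FPM with HG + FFA. The 2 groups overlapped, with set 5 lower and the other 3 sets higher. Its main effect in KO VSMC was 0.43 ± 0.11 (adjusted p = 0.054 by edgeR and 0.012 by DESeq2), and it passed edgeR without set 5 (0.54, adjusted p = 0.0064). In WT VSMC it was 0.16 ± 0.06 (adjusted p = 0.17), with single libraries between 14.9 and 28 FPM over all 4 conditions. With the counts of Acot1 and Acot2 added up, the main effect was 0.77 ± 0.11 in EC (adjusted p = 1.1e-05), 0.44 ± 0.07 in KO VSMC (adjusted p = 0.0043) and 0.15 ± 0.05 in WT VSMC (adjusted p = 0.1).

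Acot13 was low in EC and rose with the metabolic stressors. In EC it was 9.01 to 29.9 FPM in Control (median 18.8 FPM), 16.4 to 30.8 FPM with HG + FFA (median 26.2 FPM), 9.67 to 30.3 FPM with AII + NA (median 17.4 FPM) and 12 to 33.1 FPM with ALL (median 26.4 FPM). The groups overlapped, but with HG + FFA each of 9 sets was above its own Control. The rise was largest in set 13, from 15.8 to 29.8 FPM, and smallest in set 11, from 29.9 to 30.8 FPM. With ALL 7 of 9 sets were above Control, and 5 of 9 were above AII + NA. The difference was 0.45 ± 0.12 for HG + FFA (adjusted p = 0.027) and 0.47 ± 0.12 for ALL (adjusted p = 0.025), and the metabolic main effect was 0.42 ± 0.09 (adjusted p = 0.0012), a fold of 1.34. The contrasts with Control rested on single sets. The adjusted p for HG + FFA was 0.083 to 0.11 without set 12, 13 or 17, 0.053 without sets 9, 11 and 13, and 0.061 without sets 15 and 16. For ALL it was 0.053 to 0.094 without set 10, 12, 13, 15, 17 or 18, 0.058 without sets 15 and 16, and 0.028 without sets 9, 11 and 13. The main effect passed without any 1 of the 10 sets (adjusted p = 0.00043 to 0.0097) and was 0.55 ± 0.09 without EC sets 9, 11 and 13 (adjusted p = 0.00044). Tdp2, whose exons overlap it on the other strand, had a main effect of 0.18 ± 0.07 in EC (adjusted p = 0.11) and BC005537 of -0.05 ± 0.04 (adjusted p = 0.49). In WT VSMC the main effect of Acot13 was 0.11 ± 0.08 (adjusted p = 0.44), with libraries at 28.2 to 49.4 FPM. In KO VSMC it was 0.25 ± 0.11 (adjusted p = 0.31), with libraries at 31 to 81 FPM.

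Acot7 rose by a small amount in EC. It was 77.6 to 177 FPM in Control (median 146 FPM), 114 to 202 FPM with HG + FFA (median 154 FPM), 96 to 160 FPM with AII + NA (median 119 FPM) and 108 to 243 FPM with ALL (median 164 FPM). The 4 groups overlapped, and ALL was above AII + NA in 8 of 9 sets, with set 13 the exception. The metabolic main effect was 0.28 ± 0.06 (adjusted p = 0.002), a fold of 1.21, and 0.38 ± 0.06 without EC sets 9, 11 and 13 (adjusted p = 0.00038). HG + FFA against Control was 0.20 ± 0.08 (adjusted p = 0.21) and ALL 0.23 ± 0.08 (adjusted p = 0.14), and ALL passed without EC sets 9, 11 and 13 (0.39 ± 0.09, adjusted p = 0.02). In VSMC the main effect was 0.16 ± 0.06 for WT (adjusted p = 0.1) and 0.24 ± 0.08 for KO (adjusted p = 0.13), with ALL above AII + NA in 4 of 4 and 3 of 3 sets.

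**Figure D3:**
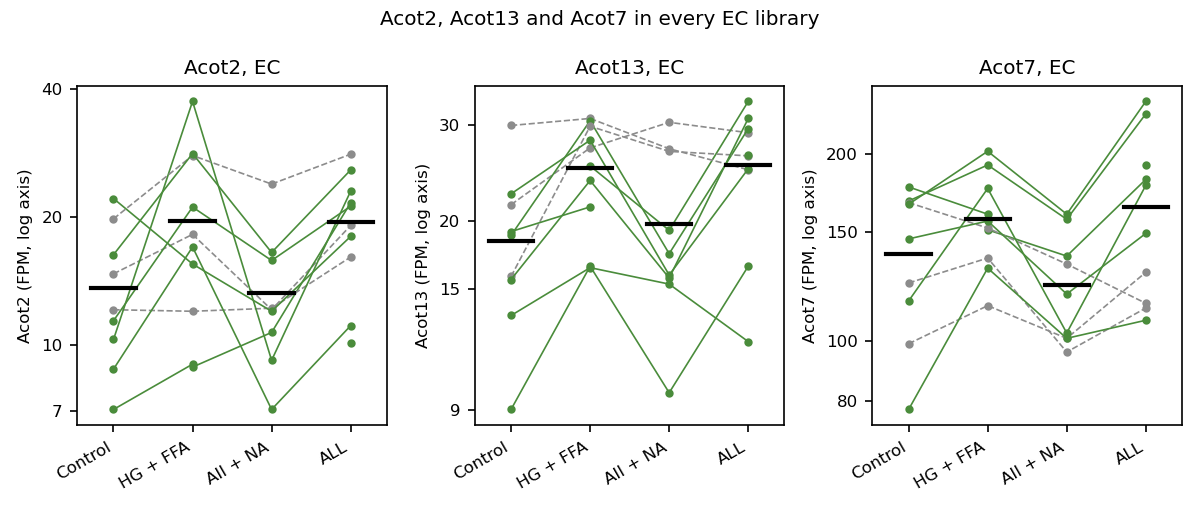
Acot2, Acot13 and Acot7 in every EC library, in FPM on a log axis, by condition. Each line joins the libraries of one set, dashed grey lines are EC sets 9, 11 and 13, and black bars are group means. The bars of HG + FFA and ALL lie above those of Control and AII + NA in all 3 panels, at 19.5 and 19.4 against 13.6 and 13.3 FPM for Acot2.

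Acot8, Acot9 and Acot11 passed no test of the metabolic stressors in any cell type. Acot8, the peroxisomal member, lay between 8.41 and 15.3 FPM in WT VSMC, 10.2 and 17.4 FPM in KO VSMC and 4.82 and 19.8 FPM in EC. Its metabolic main effect was -0.08 ± 0.07, -0.07 ± 0.09 and -0.09 ± 0.11 in WT VSMC, KO VSMC and EC (adjusted p = 0.54, 0.81 and 0.71), with 95% intervals that span -0.31 to 0.13. Acot9 lay between 34.6 and 70.9 FPM over all libraries. Its main effect was -0.02 ± 0.06, -0.04 ± 0.07 and 0.05 ± 0.07 (adjusted p = 0.87, 0.88 and 0.76). These intervals reach from -0.19 to 0.19, so changes of Acot9 past these bounds lie outside them. The main effects in EC without sets 9, 11 and 13 were -0.01 ± 0.12 for Acot8, 0.11 ± 0.07 for Acot9 and -0.16 ± 0.08 for Acot11 (adjusted p = 0.98, 0.51 and 0.27). Prdx4, which overlaps 3.7% of the exonic bases of Acot9 on the opposite strand, fell in EC by 0.18 on the log2 scale (adjusted p = 0.037). Acot11 in EC had a main effect of -0.15 ± 0.06 (adjusted p = 0.16), the opposite sign to Acot1, and was lower with HG + FFA in 8 of 9 sets. It lay between 10.6 and 45.8 FPM in EC, and its main effect was 0.04 ± 0.06 in WT VSMC and -0.04 ± 0.08 in KO VSMC (adjusted p = 0.8 and 0.89). In WT VSMC with AII + NA, Acot11 was 15.7 to 16.7 FPM against 17.4 to 20.1 FPM in Control. These groups did not overlap, and the difference was -0.19 ± 0.09 (adjusted p = 0.54). The share of all genes without overlap was not counted, so the separation alone says little of Acot11.

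For the metabolic main effect in EC, 4 of 7 members were called, all higher, beside 8.6% of all genes. The median over the members was 0.28, and over all 17148 genes it was -0.01. By the study's rule Acot1 alone was called, beside 0.746% of genes. In KO VSMC 1 of 7 members was called, with a median of 0.24 over the members, and in WT VSMC none, with a median of 0.11. The median over all genes was 0 in both. These medians describe the 7 members and have no test of their own.

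**Figure D4:**
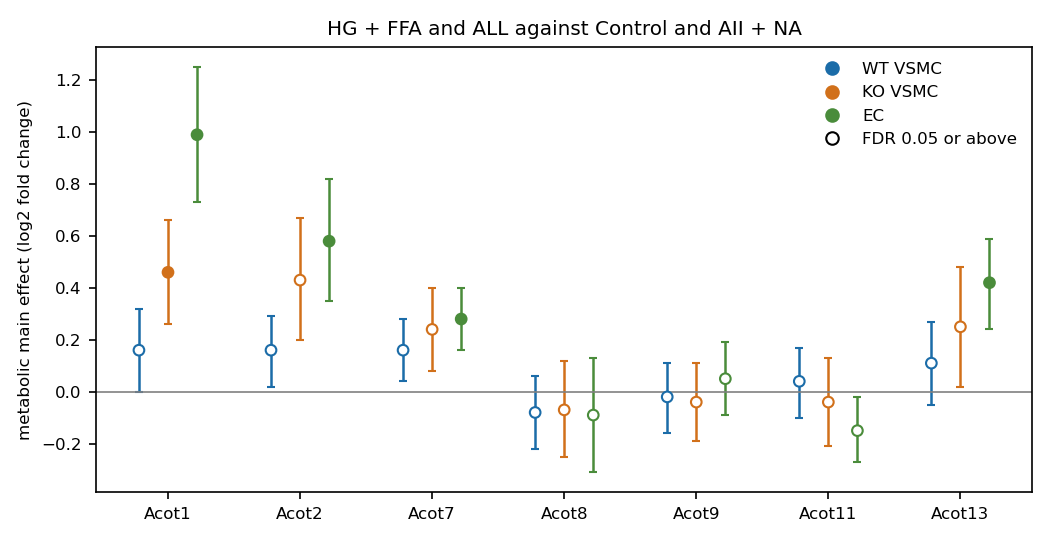
Metabolic main effect of each member (mean of HG + FFA and ALL minus mean of Control and AII + NA) in log2 units, from the paired edgeR fit of each cell type, with 95% intervals. Filled points have an adjusted p under 0.05, which holds for Acot1, Acot2, Acot7 and Acot13 in EC and for Acot1 in KO VSMC.

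AII + NA alone called no member in any cell type. In EC and in KO VSMC edgeR called no gene at all (0% of 17148 and of 17538), while 1143 and 1711 genes had an unadjusted p under 0.05, and DESeq2 called 0 and 36. Of the members, none in EC and 2 in KO VSMC (Acot1 and Acot7, both lower) had an unadjusted p under 0.05. In WT VSMC Acot1 alone did and was higher, by 0.32 ± 0.11 (edgeR, unadjusted p = 0.0091), with 0.0532% of genes called there. Departure from additivity, the difference between ALL and the sum of the separate effects, called no gene by edgeR in any cell type (0%), with 290, 1155 and 1444 genes at an unadjusted p under 0.05 in WT VSMC, KO VSMC and EC and 0, 2 and 5 called by DESeq2. No member was among them by either measure. For Acot1 in EC the departure was 0.04 ± 0.25 (95% interval -0.48 to 0.55).

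Whether the response of a member differed by genotype was tested as a difference of effects. For AII + NA, Acot1 was higher than Control in 4 of 4 WT VSMC sets and in 1 of 4 KO VSMC sets, and the difference of effects was 0.67 ± 0.16 (SE, WT minus KO, 95% interval 0.33 to 1). It did not pass by edgeR (adjusted p = 0.39), which called 0% of 18339 genes although 2182 had an unadjusted p under 0.05, but passed by DESeq2 (adjusted p = 0.037), which called 11 genes. Acot7 had 0.31 ± 0.13 (adjusted p = 0.4). With Acot1 and Acot2 added up the difference was 0.26 ± 0.12 (adjusted p = 0.41). For HG + FFA the difference of Acot1 was -0.09 ± 0.16 (adjusted p = 1, 0% of genes called, 564 at an unadjusted p under 0.05 and none by DESeq2). For ALL it was 0.15 ± 0.17 (adjusted p = 0.86, 0.0109% of genes called), and Acot2 had -0.39 ± 0.19 (adjusted p = 0.66).

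The metabolic main effect of Acot1 was larger in EC than in WT VSMC by 0.84 ± 0.21 (95% interval 0.42 to 1.25), which did not pass by edgeR (adjusted p = 0.12) and passed by DESeq2 (adjusted p = 0.039). No member was called by edgeR, beside 0.0981% of all genes. Without EC sets 9, 11 and 13 the difference was 1.14 ± 0.18 and passed (adjusted p = 0.00084), as it did without set 11 or set 13 alone (adjusted p = 0.023 and 0.025). With HG + FFA Acot1 was lower in set 11 and about level in set 13, so leaving these sets out raises the difference. Leaving out sets 9, 11 and 13 was chosen after seeing the data. Without any other 1 of the 14 sets it did not pass, with adjusted p-values of up to 0.7, nor without EC sets 10, 15 and 18 (0.80 ± 0.21, adjusted p = 0.24) or EC sets 15 and 16 (0.79 ± 0.22, adjusted p = 0.27). Acot2 had 0.43 ± 0.19 (adjusted p = 0.85), Acot13 0.31 ± 0.14 (adjusted p = 0.93) and Acot7 0.12 ± 0.10 (adjusted p = 1). Some EC and WT VSMC sets come from the same animals, and cell type, organ and batch cannot be told apart in this comparison.

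Among other genes that handle acyl-CoA, Dbi was called in each cell type. Of 19 genes of the CoA pool (acyl-CoA synthetases, fatty acid transport proteins with synthetase activity, the acyl-CoA binding protein and the enzymes that make or degrade coenzyme A), 1 of 18 tested rose in EC and none fell for the metabolic main effect. It was Dbi, the acyl-CoA binding protein, with 0.58 ± 0.07 (adjusted p = 5.1e-07). Dbi was also the only one of 19 to rise in KO VSMC (0.52 ± 0.09, adjusted p = 0.0048), and in WT VSMC Dbi rose by 0.43 ± 0.10 (adjusted p = 0.015) while the fatty acid transport protein Slc27a3 fell by 0.38 ± 0.06 (adjusted p = 0.001). Of 14 other thioesterases, 5 or 6 were tested in each cell type and none passed. The CoA pool thus had 1 of 18 called in EC, 1 of 19 in KO VSMC and 2 of 19 in WT VSMC, beside 8.6%, 2.18% and 6.77% of all genes, which at this list size is near the background. Its median effects were 0.02, 0.09 and 0.05 in that order. Dbi was again the 1 gene called of 18 without EC sets 9, 11 and 13, beside 7.17% of all genes.

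Many well-known PPAR targets rose with the metabolic stressors. Of 19 listed, 17 were tested in each cell type, and 13 rose in EC, 11 in KO VSMC and 13 in WT VSMC, with none falling, beside 8.6%, 2.18% and 6.77% of all genes. The list was chosen with earlier results of these data known, so this is not an independent comparison. In EC 13 of 17 also rose without sets 9, 11 and 13, beside 7.17%. Their median metabolic main effect was 0.74, 0.69 and 0.30. In EC those that rose included Ech1, an enzyme of fatty acid oxidation (1 ± 0.05), Angptl4, a secreted inhibitor of lipoprotein lipase (3.30 ± 0.23), and Cpt1a, which passes acyl groups to carnitine (0.74 ± 0.05), with adjusted p-values of 4.9e-16 to 1.8e-12. In KO VSMC they included Pdk4, an inhibitor of pyruvate oxidation (1.66 ± 0.15), Ech1 (0.99 ± 0.09) and the fatty acid binding protein Fabp4 (1.12 ± 0.11). In WT VSMC they included Pdk4 (1.52 ± 0.17), Ech1 (0.76 ± 0.09) and the fatty acid receptor Cd36 (1.85 ± 0.27). Among 4 receptors tested, Pparg was called in each cell type, with 0.29 ± 0.08 in EC, 0.71 ± 0.15 in KO VSMC and 0.45 ± 0.10 in WT VSMC. No receptor was called in EC without sets 9, 11 and 13.

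Markers of other cells moved with the metabolic stressors in part. In EC 3 of 5 fibroblast markers fell, namely Col1a1 (-0.54 ± 0.13), Pdgfra (-0.32 ± 0.08) and Pi16 (-0.73 ± 0.21), and the same 3 fell without EC sets 9, 11 and 13. Over the 9 sets with both libraries their sum was lower with HG + FFA in 7, with medians of 3300 FPM in Control and 2930 FPM with HG + FFA. Of 7 endothelial markers Emcn rose (0.36 ± 0.06) while Tek (-0.32 ± 0.07) and Vwf (-0.44 ± 0.12) fell, and the sum was higher with HG + FFA in 6 of these 9 sets, with medians of 720 FPM in Control and 745 FPM with HG + FFA. No smooth muscle or leukocyte marker was called in EC with all sets, while Tagln rose and Tnnt2 fell without EC sets 9, 11 and 13. In KO VSMC the smooth muscle markers Smtn (-0.37 ± 0.09) and Myh11 (-0.68 ± 0.16), the fibroblast marker Pi16 (-0.70 ± 0.12) and Tnnt2 of the cardiomyocyte list (-1.08 ± 0.20) fell, and in WT VSMC Pi16 (-0.80 ± 0.08) and the leukocyte marker Adgre1 (-1.18 ± 0.24) fell. Their part in the values of the members was not tested.

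As a description, with no test, the genes whose pattern was most like that of a member were found by Pearson's r of log2(FPM + 0.5) after the mean of each set was subtracted, over 69 libraries and 15879 other genes tested in all 3 cell types. The libraries share their sets and conditions. For Acot1 they were Angptl4 (r = 0.83), the mitochondrial carrier Ucp2 (r = 0.81) and the noncoding RNA Gm56730 (r = 0.80). For Acot2 they were the thioredoxin reductase Txnrd1 (r = 0.82), the kinase Mapk6 (r = 0.81) and the sulfiredoxin Srxn1 (r = 0.77), and Acot1 with Acot2 had r = 0.72. For Acot7 they were the cyclin-dependent kinase Cdk4 (r = 0.88), the glycolytic enzyme Eno1 (r = 0.84) and Get3 (r = 0.82). For Acot13 they were Plin2, a coat protein of lipid droplets (r = 0.80), Esd (r = 0.78) and the glycolytic enzyme Pgk1 (r = 0.77). No gene was among the 3 closest of more than 1 member.

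The relatives of Acot1 and Acot2 in the same cluster on chromosome 12 had few or no counts, except Acot6. Acot3 did not exceed 0.0618 FPM and Acot5 did not exceed 0.123 FPM in any library. Acot4 stayed at or under 1.07 FPM, and Acot6 lay between 1.55 and 8.1 FPM. Acot10, the retrogene of Acot9, did not exceed 0.27 FPM. The lowest count in any library was 54 for Acot1 and 1663 for Acot7.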

How the data were processed

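Poly(A) RNA was sequenced in 69 libraries. The authors aligned reads to mm39 with HISAT2 2.1.0 and deposited raw counts per Ensembl gene from featureCounts, with multi-mapping reads counted. The deposited tables were used as they are. Counts were fitted with edgeR 4.0.16 in R 4.3.3 (TMM, filterByExpr, quasi-likelihood test), with condition and set number as terms for each cell type, and p-values were adjusted over all genes tested (Benjamini-Hochberg). A member was called at an adjusted p under 0.05. The metabolic main effect is the mean of HG + FFA minus Control and ALL minus AII + NA. DESeq2 1.42.0 with the same model was an alternative, and the scripts were tested on simulated data. Libraries of a set come from the same animal by the labels, and after group means were subtracted, libraries of a set correlated with each other by at least 0.46, 0.63 and 0.72 in WT VSMC, KO VSMC and EC. No pair of libraries in a group was identical. Control levels between cell types were compared without pairing. Genes of the other lists were named when called for the metabolic main effect, up to 4 per list and cell type by adjusted p, and 1 gene that this rule names is not reported here. Marker genes that were called are named as well, a choice made after their values were seen. The members and lists were chosen with earlier results of these data known. KO VSMC set 5 with ALL was not analysed here.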

Additional observations from a re-analysis of the deposited data

Results flagged for a closer look

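In each group of 4 to 10 libraries the highest and the lowest value of every member was compared with its nearest neighbour by Dixon's criterion. Of 77 combinations of member and group, 5 had a value that stood apart, and chance alone gives about 1 in 20. Acot1 in EC with HG + FFA was 51 FPM in set 18, while the next library had 25.2 FPM. Acot2 in WT VSMC with ALL was 27.9 FPM in set 1, and the next had 20.2 FPM. Acot8 in EC with ALL was 19.8 FPM in set 14, and the next had 12.5 FPM. Acot9 in WT VSMC with AII + NA was 69.2 FPM in set 1, and the next had 47.4 FPM. Acot11 in KO VSMC with HG + FFA was 35.5 FPM in set 6, and the next had 19.6 FPM.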

How the results depend on the processing

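The pairing by set decided the calls. With no replicate block, the number of members called fell to 0 for ALL in WT VSMC, to 0 for the metabolic main effect in KO VSMC, and to 0 for HG + FFA, ALL and the main effect in EC, where the log2 difference of Acot1 was 0.99 (adjusted p = 0.53). By the study's rule for differentially expressed genes the counts were 0 for ALL in WT VSMC, 0 for the main effect in KO VSMC and 1 for each of HG + FFA, ALL and the main effect in EC. For ALL in WT VSMC the count was also 0 with no count filter, with Acot1 and Acot2 added up, and with only the 2 groups compared in the fit, which gave 1 for ALL in EC. With no count filter it was 1 for ALL in KO VSMC, 2 for the main effect in KO VSMC, 1 for the genotype difference with AII + NA and 1 for the EC minus WT VSMC main effect. DESeq2 gave 2 for the main effect in KO VSMC, as did its size factors in edgeR, and 1 each for the genotype difference with AII + NA, the EC minus WT VSMC main effect and the KO minus WT Control level. Without EC sets 10, 15 and 18 the count was 1 for HG + FFA and 1 for ALL in EC, as it was without EC sets 15 and 16. Without EC sets 9, 11 and 13 it was 1 for HG + FFA in EC, 1 for the EC minus WT VSMC main effect and 2 for the EC minus WT VSMC Control level.

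Leaving out each set in turn gave 0 to 0 members for ALL in WT VSMC. It gave 0 to 1 for HG + FFA in KO VSMC, 0 to 1 for ALL in KO VSMC and 0 to 2 for the main effect in KO VSMC. It gave 1 to 3 for HG + FFA and 1 to 2 for ALL in EC, 0 to 1 for the EC minus WT VSMC main effect and 0 to 2 for its Control level. The count of 1 for HG + FFA and for ALL in KO VSMC came without set 5. Small main effects that were not called changed sign on leaving out a set, with log2 values of -0.153 to 0.00202 for Acot8, -0.0789 to 0.0264 for Acot9 and -0.0866 to 0.0208 for Acot11 in KO VSMC and -0.0588 to 0.022 for Acot9 in WT VSMC. A tally covered members called by edgeR or DESeq2 in a comparison, and all members for the metabolic main effect within a cell type. Over all settings except the study's rule, 370 of these log2 differences kept direction and side of the threshold. Of the rest, 36 lost the call, 19 gained it and 4 changed sign. Leaving out EC sets 9, 11 and 13 or EC sets 15 and 16 was chosen after seeing the data. The cause of these shifts was not tested.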
